A study of Homo sapiens with 6 samples.

Results

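The SLC25 proteins are the mitochondrial carrier family, which moves nucleotides, phosphate, carboxylates, amino acids and cofactors across the inner mitochondrial membrane. Members were the rows of the gene table whose symbol is SLC25A followed by a number. There were 48 of them among 50868 genes, and 39 had enough counts for a test, among 14250 genes tested. The cells were KYSE-150, a line from an oesophageal squamous cell carcinoma. In siZNF514 cells, with 3 libraries, the zinc finger protein gene ZNF514 was targeted. The labels call its genotype a ZNF514 knockout and also name a small interfering RNA, which lowers a transcript and does not alter the gene. They were compared with nc, KYSE-150 cells that the series describes as wild type, also with 3 libraries. All libraries came from the same cell line in the same serum-containing medium. The sources used here do not state the siRNA sequence, dose, time or any control siRNA in nc cells. No label states whether libraries are separate cultures, and p-values therefore reflect only the spread between these libraries, which may be technical.

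Mitochondrial carriers are encoded in the nucleus, made in the cytosol and inserted into the inner membrane, where most of them exchange a solute of the matrix for one of the cytosol. The ADP/ATP and phosphate carriers supply ATP synthase with its substrates. The citrate, oxoglutarate and aspartate/glutamate carriers link the citric acid cycle to lipid synthesis and to the transfer of reducing equivalents between cytosol and matrix. Other members bring in cofactors such as folate, coenzyme A and S-adenosylmethionine, which matrix enzymes need and mostly cannot make.

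Each library held between 12175259 and 14318909 counts, and SLC25A members took 0.312% of the siZNF514 counts and 0.310% of the nc counts. ZNF514 itself had 64, 82 and 63 counts in the siZNF514 libraries, against 239, 273 and 261 in the nc libraries. Its log2 fold change was -1.87 (SE 0.14, adjusted p = 5.77e-05, edgeR). This and all later adjusted p-values are from edgeR's quasi-likelihood F test, adjusted over all genes tested by the Benjamini-Hochberg method. Permuting the 6 CPM values in an exact test (two-sided) gave 0.1 as p, and 3 libraries against 3 cannot go lower. Of 9 epithelial and squamous markers, 7 reached a mean of 1 FPKM (fragments divided by a length for the gene and by library total). The summed level of the 9 was 492 to 548 FPKM in siZNF514 and 425 to 446 FPKM in nc. None of 6 fibroblast or 4 endothelial markers reached 1 FPKM, and of 5 leukocyte markers, which summed to 10.0 to 12.2 FPKM in siZNF514 and 12.3 to 15.1 FPKM in nc, CD68 alone did. Of 5 markers of muscle and liver, where some carriers are restricted, MYH7, ACTA1, ALB and APOA1 had no count. DES, the other marker, was at 0 FPKM in siZNF514 and at most 0.0562 FPKM in nc. These are bulk libraries, so fewer cells that express a carrier and less RNA per cell cannot be told apart.

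Of the 39 tested carriers, 24 passed an adjusted p of 0.05, which is 61.5% of them, beside 50.6% of all tested genes. In siZNF514, 10 rose, 25.6% beside 25.5% of all genes, and 14 fell, 35.9% beside 25.1% of all genes. The phosphate carrier SLC25A3 was the only one of the 10 to rise by at least 1.5-fold, a size that 2.56% of the carriers and 8.73% of all genes reached in that direction. Among those that fell, 8 carriers did so by at least 1.5-fold, 20.5% of the carriers beside 14.3% of all genes. They were SLC25A32, SLC25A35, SLC25A38, SLC25A46, SLC25A10, SLC25A44, SLC25A42 and SLC25A24. The median log2 fold change over the tested carriers was -0.11, with an interquartile range of -0.49 to 0.26, against -0.01 over all tested genes. Fold changes are siZNF514 over nc and are relative to the bulk of genes. With libraries scaled by their total counts alone, the median of all genes was -0.14, and 6 carriers were higher and 19 lower, beside 17.5% of all genes higher and 33.5% lower under that scaling. SLC25A12, SLC25A36, SLC25A39 and SLC25A40 then no longer passed, while SLC25A15 (-0.33), SLC25A25 (-0.30), SLC25A29 (-0.38), SLC25A30 (-0.28) and SLC25A45 (-1.15) passed as lower. The 6 CPM values (counts scaled to a common library size) of a carrier did not overlap between groups for 11 carriers higher in siZNF514, beside 30.0% of all genes, and for 16 lower, beside 30.3% of all genes.

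**Figure D1:**
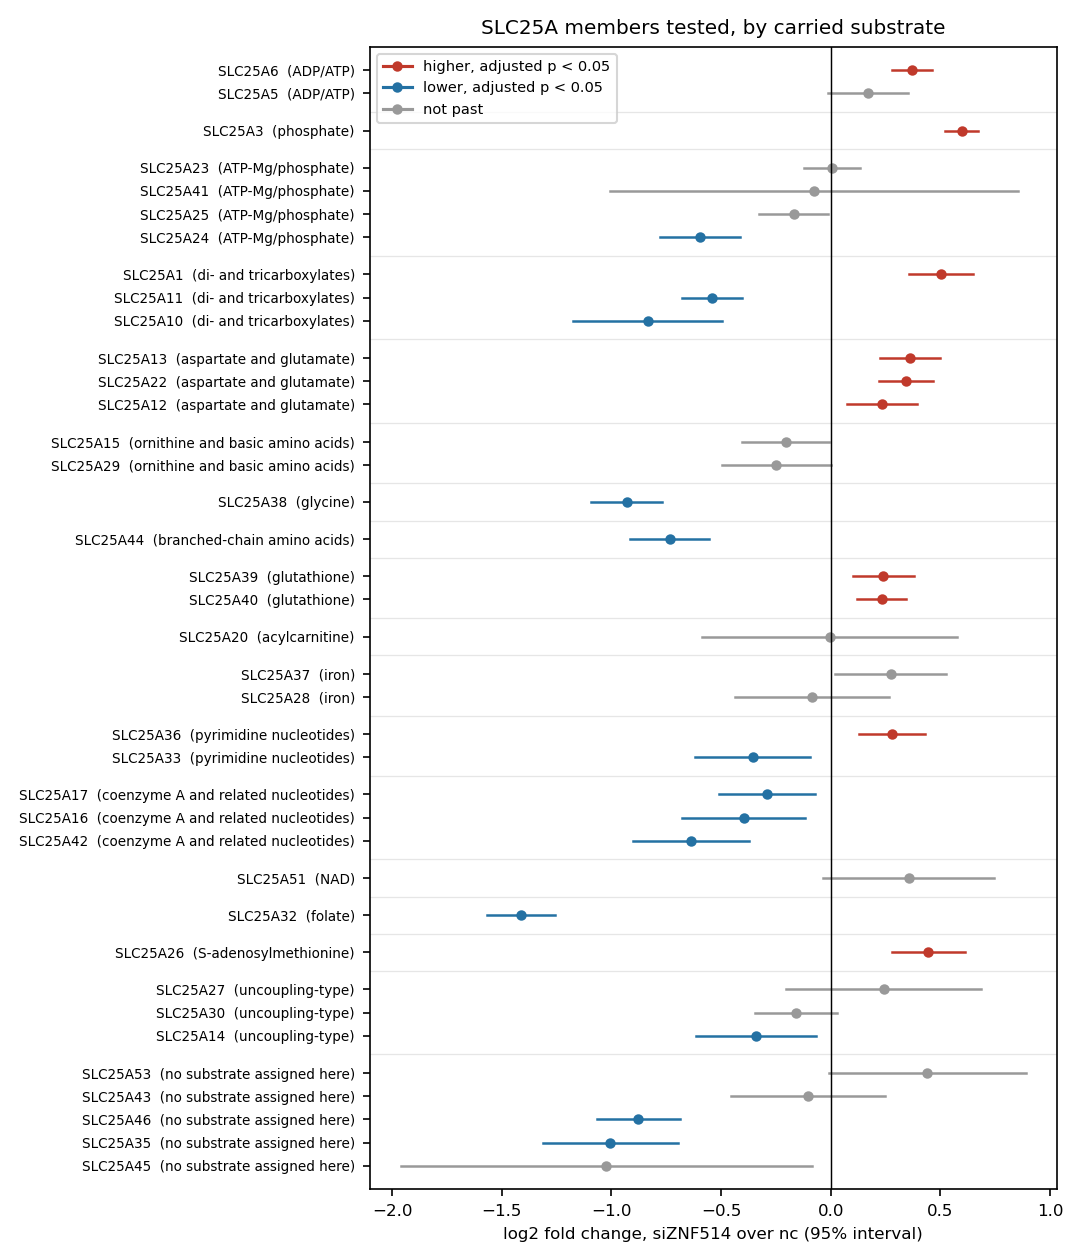
The log2 fold change of siZNF514 over nc (horizontal axis) is drawn for the tested SLC25A members named in the text, grouped by carried substrate, with lines for the 95% interval. Red points rose, blue points fell and grey points did not pass; the points run from -1.41 (SLC25A32) to 0.60 (SLC25A3).

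Levels are compared between genes as the deposited FPKM, which divides by a length for each gene. For several carriers, among them SLC25A3, SLC25A1, SLC25A39, SLC25A11, SLC25A22, SLC25A35 and SLC25A45, the length implied by count and FPKM is longer than the gene's locus. Levels, bands and shares compared between genes therefore depend on lengths that are not plain transcript lengths. The 13 least expressed of the tested carriers (0.12 to 2.62 FPKM averaged over both groups) included 5 that fell and none that rose. Among all genes within the same lowest band, 28.1% fell and 12.9% rose. The 13 most expressed carriers included 4 that fell and 6 that rose, and in that band 19.5% of all genes fell and 46.8% rose. In both the carriers and all genes, the share that rose was larger in the highest band than in the lowest.

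**Figure D2:**
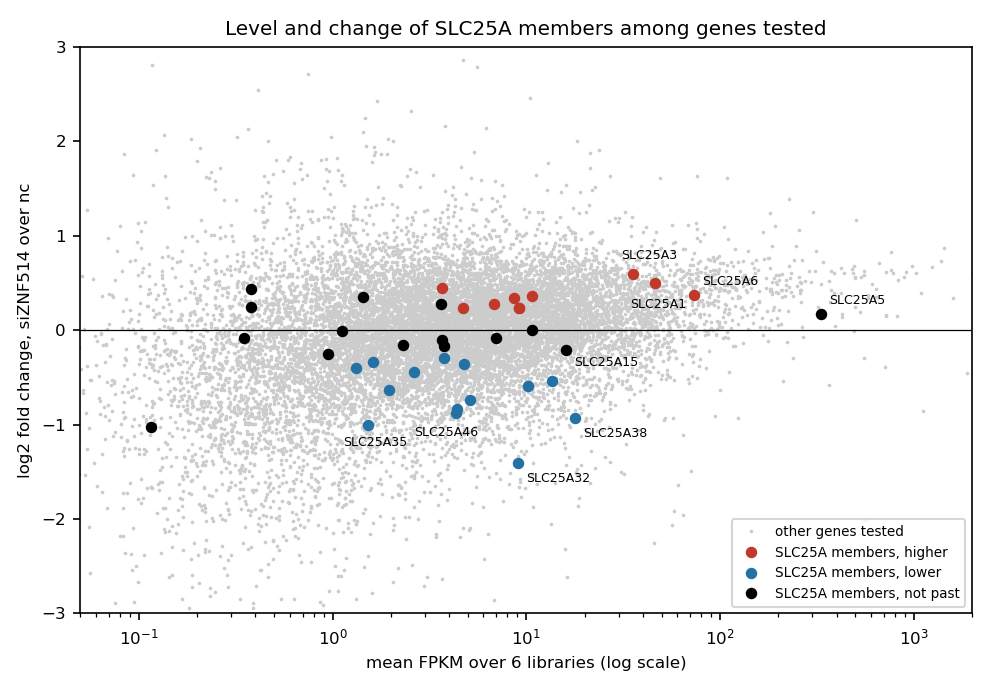
Mean FPKM over the 6 libraries (horizontal axis, log scale) is plotted against the log2 fold change of siZNF514 over nc (vertical axis, cut at -3 and 3) for the 39 tested members and, in grey, the other tested genes. Members that rose (red) lie in the middle and right of the plot, and no member in the lowest band of 13 rose.

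Scaled by library total, as FPKM is, the family's summed level was close between groups. The summed FPKM of the 48 members was 671 ± 31.5 in siZNF514 and 674 ± 7.73 in nc (SD, n = 3 each). Fold changes add a factor for each library, 0.954 to 0.962 in siZNF514 and 1.043 to 1.049 in nc. With those factors the sum is higher in siZNF514. SLC25A5 alone held 49.9 ± 3.05% of the summed FPKM in siZNF514 and 48.3 ± 1.07% in nc. SLC25A3, SLC25A5 and SLC25A6 together held 67.9 ± 2.48% in siZNF514 and 62.7 ± 0.895% in nc. These shares depend on the lengths behind FPKM. In CPM, SLC25A5 averaged 821 in siZNF514 and 730 in nc, and SLC25A3 averaged 702 in siZNF514 and 464 in nc.

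RefSeq windows (GRCh38.p14, from 250 bases before to 50 after a transcription start) were matched for 40 of the 48 members. SLC25A32 and SLC25A35, which fell furthest, had none matched. Of the carriers past the threshold with a window, the 2 with the largest changes in each direction are shown, because this lets the directions be compared in sequence. Of the 250 upstream bases, the longest stretch outside exons annotated in GENCODE 29 is printed, 5′ to 3′ on the gene's strand. Capitals mark matches, on either strand, to the GC box GGGCGG, the CCAAT box CCAAT, the ETS core CCGGAAG and the E-box CACGTG, none of which contains another. SLC25A3 (chr12:98593436-98593590, plus strand) and SLC25A1 (chr22:19178831-19178986, minus strand) rose. SLC25A38 (chr3:39383120-39383323, plus strand) and SLC25A46 (chr5:110738957-110738993, plus strand) fell. The SLC25A46 stretch lies inside the gene as the deposited table places it, which starts at 110738136, since the RefSeq start used is further downstream.
SLC25A3: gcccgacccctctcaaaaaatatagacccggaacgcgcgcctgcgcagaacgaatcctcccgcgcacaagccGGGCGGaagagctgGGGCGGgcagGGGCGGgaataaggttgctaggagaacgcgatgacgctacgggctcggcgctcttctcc
SLC25A1: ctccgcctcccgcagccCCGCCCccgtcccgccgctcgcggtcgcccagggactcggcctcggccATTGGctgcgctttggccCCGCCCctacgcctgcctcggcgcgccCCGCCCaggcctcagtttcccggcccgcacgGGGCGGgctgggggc
SLC25A38: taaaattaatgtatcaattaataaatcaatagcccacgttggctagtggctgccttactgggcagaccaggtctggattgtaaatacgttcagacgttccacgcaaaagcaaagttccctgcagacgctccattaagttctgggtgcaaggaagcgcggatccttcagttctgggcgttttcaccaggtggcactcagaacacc
SLC25A46: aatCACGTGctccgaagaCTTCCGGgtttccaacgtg

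The SLC25A3 stretch held 3 GC boxes, and its full window also held a CCAAT box and a YY1 site (AAGATGGC) in the part not printed. The SLC25A1 stretch held 4 GC boxes and 1 CCAAT box. The SLC25A38 stretch held none of the motifs searched, though its full window held an E-box and an ETS core in the part not printed, and the short SLC25A46 stretch held 1 E-box and 1 ETS core. Over the full windows of 300 bases, a GC box was present in 9 of the 10 carriers that rose and in 5 of the 10 with a window that fell, against 45% of all 34961 windows. An ETS core was present in 0 of the 10 that rose and 5 of the 10 that fell, against 10.3% of all windows. An E-box was present in 2 of the 10 that rose and 3 of the 10 that fell, against 7.27% of all windows, and a CCAAT box in 5 of 10 in both, against 34.6%. Of the 20 members with a window that did not pass or were not tested, 15 had a GC box and 4 an ETS core. An E-box was present in 2 of these 20 and a CCAAT box in 8. Median GC content was 74.7% in the windows of carriers that rose, 64.5% in those that fell, 66.8% in all members with a window and 58.7% in all windows. All windows were not limited to tested genes, to 1 window for each gene or to a like GC content. Shares in carriers and in all windows are therefore not from like sets. The YY1 site AAGATGGC was found in 2 of 40 members' windows (2.89% of all windows), the CRE site TGACGTCA in 2 (1.85%) and the TATA box TATAAA in 3 (11.5%). A match is a run of letters and not a shown binding site.

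The carriers of adenine nucleotides and phosphate included the most abundant member, SLC25A5, and 2 of 3 tested carriers of ADP/ATP or phosphate rose. All 3 lay in the highest band of level, where 46.8% of all tested genes rose. SLC25A3 brings phosphate into the matrix for ATP synthesis. In siZNF514, SLC25A3 was at 684, 697 and 724 CPM, and in nc at 464, 463 and 465 CPM. Its groups did not overlap, the nc libraries lay within 3 CPM of each other, and its log2 fold change was 0.60 (SE 0.03, adjusted p = 1.87e-05, edgeR). SLC25A5 and SLC25A6 are ADP/ATP translocases, which export ATP in exchange for ADP. SLC25A6 was at 229.5, 238 and 241 CPM in siZNF514 and at 182, 186 and 181 CPM in nc. The log2 fold change of SLC25A6 was 0.37 ± 0.04, and every siZNF514 library lay above every nc library. The siZNF514 values of SLC25A5 were 721, 900.2 and 842 CPM and the nc values 700.0, 737 and 752 CPM. The siZNF514 and nc values of SLC25A5 overlapped, and its log2 fold change of 0.17 ± 0.08 did not pass (95% interval -0.01 to 0.35), though it did without siZNF514 library 1 (0.26). SLC25A5 has processed pseudogenes, and the 7 with any count held 70 counts in all, against 61474 on SLC25A5. The translocases SLC25A4 of heart and muscle and SLC25A31 of testis had 2 and 0 counts over all 6 libraries and were not tested.

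The ATP-Mg/phosphate carriers adjust the adenine nucleotide content of the matrix, and SLC25A24 of the 4 tested fell. For SLC25A24, the siZNF514 libraries gave 98.9, 93.3 and 80.1 CPM and the nc libraries 136, 136 and 139 CPM. Its groups did not overlap, and its log2 fold change was -0.60 ± 0.08. CPM of SLC25A23 were 89.4, 89.5 and 83.3 in siZNF514, against 84.5, 86.1 and 90.8 in nc. SLC25A23 gave a log2 fold change of 0.0042 ± 0.05 with a 95% interval of -0.12 to 0.13, and its groups overlapped. SLC25A25 stood at 29.1, 29.1 and 30.4 CPM in the siZNF514 libraries and at 31.8, 34.5 and 33.4 CPM in nc. SLC25A25 had a log2 fold change of -0.17 ± 0.07 and SLC25A41, with 5, 11 and 15 counts in siZNF514 and 11, 13 and 9 in nc, one of -0.08 ± 0.39, and none of these 3 passed. SLC25A24 held 35.5 ± 2.20% of the summed FPKM of the 4 in siZNF514 and 44.7 ± 0.568% in nc. SLC25A23 held 47.4 ± 0.416% in siZNF514 and 39.4 ± 0.720% in nc. By FPKM the member with the larger share was SLC25A23 in siZNF514 and SLC25A24 in nc. By CPM, which is not divided by length, SLC25A24 averaged more in both groups. Its means were 90.8 CPM in siZNF514 and 137 CPM in nc, against 87.4 and 87.1 CPM for SLC25A23.

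The di- and tricarboxylate carriers moved in opposite directions. SLC25A1 exports citrate, the source of cytosolic acetyl-CoA for lipid synthesis. SLC25A1 had 248, 222 and 225 CPM in the siZNF514 libraries, against 169, 154 and 169 CPM in the nc libraries. SLC25A1 rose, with a log2 fold change of 0.50 ± 0.06 and no overlap between groups. SLC25A11 exchanges oxoglutarate for malate in the malate-aspartate shuttle. In siZNF514, SLC25A11 was at 50.5, 49.4 and 54.3 CPM, and in nc at 74.9, 76.6 and 72.7 CPM. SLC25A11 fell by 0.54 on the log2 scale. RNF167, which overlaps it on the other strand, also fell, with -0.63 ± 0.12, and whether counting used strand is not given, so reads in the overlap cannot be told apart. SLC25A10 exchanges malate or succinate for phosphate. SLC25A10 was at 17.2, 21.5 and 15.6 CPM in siZNF514 and at 31.8, 36.4 and 28.5 CPM in nc. SLC25A10 fell, with -0.83 ± 0.14. A same-strand overlapping gene, AC139530.2, had 114, 0 and 272 counts in siZNF514 and 176, 0 and 192 in nc, and with both genes' counts summed the log2 fold change was -0.59 (SE 0.18, adjusted p = 0.0309, edgeR). The share of SLC25A1 in the summed FPKM of this group was 79.4 ± 1.28% in siZNF514 and 64.1 ± 2.31% in nc (SD, n = 3 each). The share of SLC25A11 was 16.0 ± 1.15% in siZNF514 and 26.5 ± 1.06% in nc, and that of SLC25A10 was 4.53 ± 0.869% in siZNF514 and 9.21 ± 1.27% in nc. SLC25A21, the oxoadipate carrier, had 8, 2 and 7 counts in siZNF514 and 7, 7 and 7 in nc and was not tested.

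**Figure D3:**
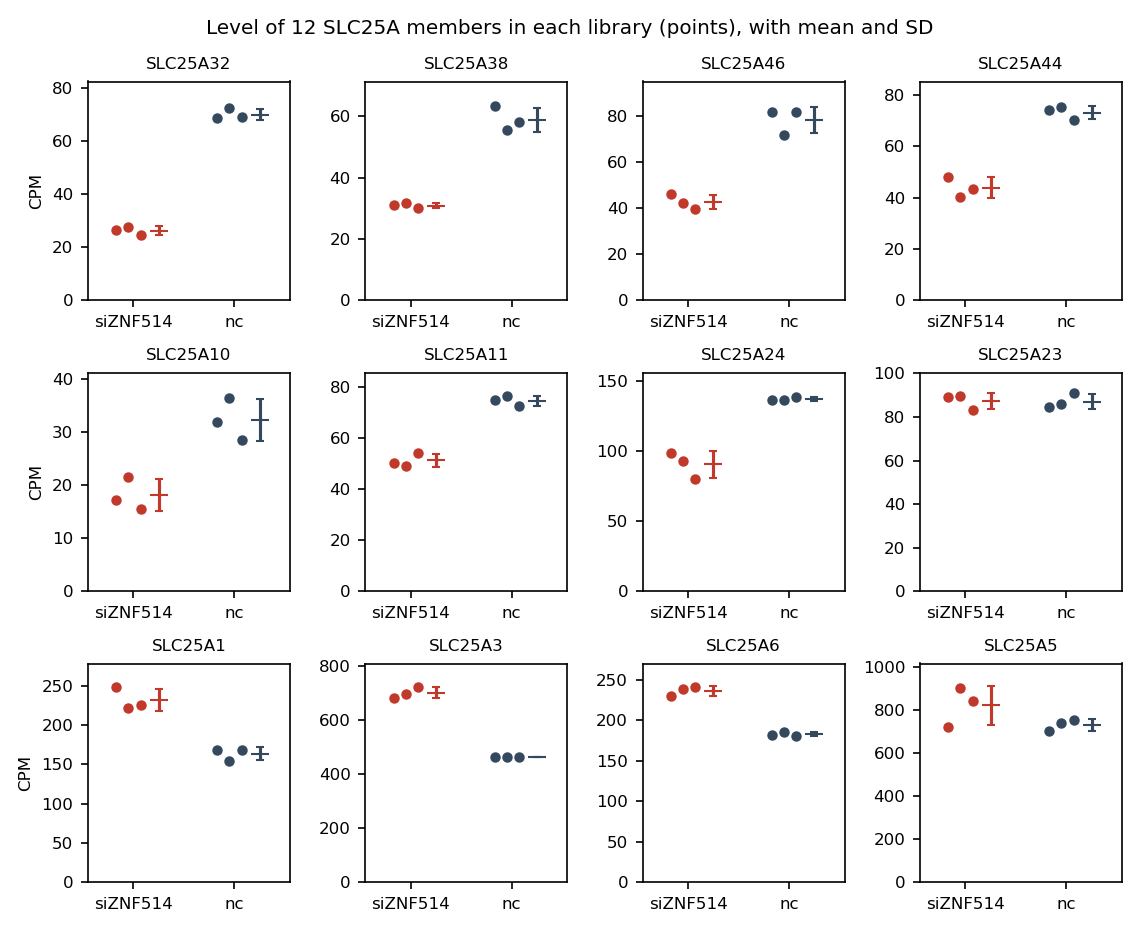
CPM in each library (vertical axes) is drawn for 12 members, with siZNF514 left of nc, a dot for each library, and the mean with its SD beside the dots. The siZNF514 dots lie below the nc dots for SLC25A32, SLC25A38, SLC25A46, SLC25A44, SLC25A10, SLC25A11 and SLC25A24, above them for SLC25A1, SLC25A3 and SLC25A6, and overlap them for SLC25A23 and SLC25A5.

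Of the aspartate and glutamate carriers, 3 of 3 tested members passed as higher, beside 25.5% of all tested genes. In the highest band of level, which held SLC25A13, 46.8% of all genes rose. In the middle band, which held SLC25A12 and SLC25A22, 27.4% did. SLC25A12 and SLC25A13 export aspartate for glutamate in the malate-aspartate shuttle, and SLC25A22 is a glutamate carrier. The siZNF514 values of SLC25A13 were 79.5, 77.5 and 79.4 CPM and the nc values 64.9, 57.6 and 61.6 CPM. The log2 fold change of SLC25A13 was 0.36 ± 0.06. For SLC25A22, the siZNF514 libraries gave 106, 102 and 107 CPM and the nc libraries 79.3, 87.1 and 82.2 CPM. SLC25A22 rose by 0.34 on the log2 scale. CPM of SLC25A12 were 37.7, 37.6 and 41.6 in siZNF514, against 32.7, 32.7 and 34.0 in nc. SLC25A12 rose least, with 0.23 (SE 0.07, adjusted p = 0.0248, edgeR), and with total counts alone its log2 fold change was 0.11 and did not pass. It also did not pass without nc library 1 (0.23), nc library 2 (0.23) or siZNF514 library 3 (0.19), nor with DESeq2 (0.25, adjusted p = 0.0532). The gene HAT1, which overlaps SLC25A12, was higher (0.48 ± 0.04) and METAP1D, also overlapping it, was lower (-0.97 ± 0.15). SLC25A18, the other glutamate carrier, had 1 count in all.

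The other amino acid carriers fell or did not pass. SLC25A38 brings glycine into the matrix for the first step of haem synthesis. SLC25A38 stood at 31.2, 31.6 and 30.0 CPM in the siZNF514 libraries and at 63.2, 55.4 and 58.1 CPM in nc. Its level in siZNF514 was 52.5% of that in nc, with a log2 fold change at -0.93 (SE 0.07, adjusted p = 6.06e-05, edgeR), and the groups did not overlap. SLC25A44 carries branched-chain amino acids. SLC25A44 had 48.0, 40.2 and 43.4 CPM in the siZNF514 libraries, against 73.9, 75.0 and 70.1 CPM in the nc libraries. SLC25A44 fell, with a log2 fold change of -0.73 ± 0.08. SLC25A15 exchanges ornithine for citrulline in the urea cycle and SLC25A29 carries basic amino acids. In siZNF514, SLC25A15 was at 36.9, 31.5 and 36.7 CPM, and in nc at 40.1, 42.6 and 38.5 CPM. SLC25A29 was at 16.9, 18.5 and 20.4 CPM in siZNF514 and at 20.3, 23.8 and 22.2 CPM in nc. Their log2 fold changes were -0.21 ± 0.08 and -0.25 ± 0.11, and neither passed. SLC25A2, a second ornithine carrier, had 1 count in all.

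The glutathione carriers SLC25A39 and SLC25A40 were both higher, by amounts that depended on scaling. Both lay in the highest band of level, where 46.8% of all tested genes rose. The siZNF514 values of SLC25A39 were 113, 105 and 107 CPM and the nc values 97.3, 90.8 and 86.9 CPM. For SLC25A40, the siZNF514 libraries gave 70.0, 72.1 and 71.5 CPM and the nc libraries 60.9, 60.0 and 61.1 CPM. Their log2 fold changes were 0.24 ± 0.06 and 0.23 ± 0.05, and with total counts alone they were 0.11 and 0.10 and did not pass. SLC25A39 held 49.9 ± 1.33% of their summed FPKM in siZNF514 and 49.8 ± 1.48% in nc, a difference smaller than either SD. SLC25A40 overlaps DBF4, which had a log2 fold change of -0.01 ± 0.11. The mitoferrins SLC25A37 and SLC25A28 import iron. CPM of SLC25A37 were 65.6, 72.3 and 60.3 in siZNF514, against 54.3, 48.0 and 61.8 in nc. SLC25A28 stood at 18.0, 14.7 and 20.2 CPM in the siZNF514 libraries and at 20.6, 16.0 and 19.6 CPM in nc. Neither mitoferrin passed, with log2 fold changes of 0.27 ± 0.11 for SLC25A37 and -0.09 ± 0.15 for SLC25A28, though SLC25A37 passed without nc library 3 (0.37). SLC25A20, the carnitine/acylcarnitine carrier of fatty acid oxidation, had 49, 72 and 67 counts in siZNF514 and 42, 81 and 68 in nc. Its log2 fold change was -0.0049 ± 0.25 with a 95% interval of -0.59 to 0.58, so changes within that interval were not excluded.

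The cofactor carriers held the largest change among the 39 tested SLC25A members. SLC25A32 imports folate into the matrix, where it carries one-carbon units, and has also been linked to FAD. SLC25A32 had 26.5, 27.7 and 24.6 CPM in the siZNF514 libraries, against 68.5, 72.5 and 68.8 CPM in the nc libraries. The level of SLC25A32 in siZNF514 was 37.6% of that in nc, and the log2 fold change was -1.41 (SE 0.07, adjusted p = 1.12e-05, edgeR). The overlapping gene DCAF13, on the other strand, had 0.13 ± 0.08, which did not pass. SLC25A42 imports coenzyme A into mitochondria. In siZNF514, SLC25A42 was at 8.08, 7.90 and 8.35 CPM, and in nc at 12.7, 11.4 and 13.7 CPM. SLC25A42 fell, with -0.64 ± 0.11. SLC25A17, the peroxisomal carrier of coenzyme A and related cofactors, and SLC25A16, named as a possible coenzyme A carrier, fell as well. Their log2 fold changes were -0.29 ± 0.09 for SLC25A17 (382, 409 and 386 counts in siZNF514 and 446, 584 and 431 in nc) and -0.40 ± 0.12 for SLC25A16 (144, 192 and 169 counts in siZNF514 and 229, 235 and 207 in nc). The call of SLC25A16 was lost without any 1 library other than siZNF514 library 2 (-0.42 to -0.31), and that of SLC25A17 without nc library 2 (-0.20) or any 1 siZNF514 library (-0.32 to -0.24).

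SLC25A26, which imports S-adenosylmethionine for methylation in the matrix, rose. SLC25A26 was at 29.9, 30.7 and 32.7 CPM in siZNF514 and at 22.7, 23.0 and 22.9 CPM in nc. Its log2 fold change was 0.45 ± 0.07, with no overlap. LRIG1, which overlaps SLC25A26, had 62 counts in siZNF514 and 4 in nc, few beside the 2138 counts of SLC25A26. SLC25A51, the NAD carrier, had 100, 148 and 134 counts in siZNF514 and 108, 106 and 87 in nc and a log2 fold change of 0.36 ± 0.17, which passed without siZNF514 library 1 (0.49) and not otherwise, and SLC25A52, its close relative, had 1 count. The pyrimidine nucleotide carriers diverged. The siZNF514 values of SLC25A36 were 112, 103 and 98.3 CPM and the nc values 89.8, 81.9 and 86.5 CPM. For SLC25A33, the siZNF514 libraries gave 16.6, 17.6 and 13.9 CPM and the nc libraries 21.7, 19.6 and 20.4 CPM. SLC25A36 was higher, with a log2 fold change of 0.28 ± 0.06 (0.15 and not past with total counts alone), and SLC25A33 was lower, with -0.36 ± 0.11, a call lost without any 1 library other than siZNF514 library 2 (-0.39 to -0.25). SLC25A36 held 64.3 ± 2.29% of their summed FPKM in siZNF514 and 53.7 ± 0.313% in nc.

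**Figure D4:**
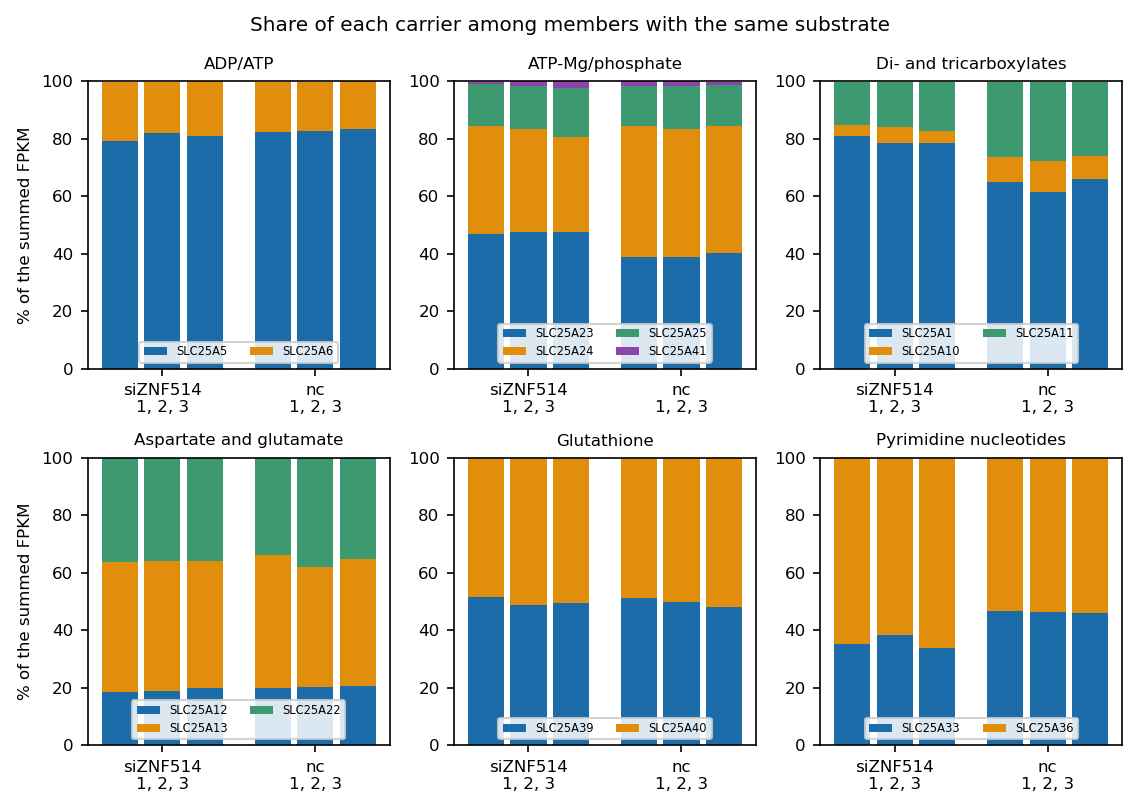
The percentage of a substrate group's summed FPKM held by each member (vertical axis) is drawn for 6 substrate groups as a stacked bar for each library, the 3 siZNF514 bars left of the 3 nc bars. SLC25A1 held 79.4% in siZNF514 and 64.1% in nc, and SLC25A39 of the glutathione pair 49.9% in siZNF514 and 49.8% in nc.

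Among carriers placed in no substrate group here, SLC25A35 and SLC25A46 fell. SLC25A46 lies in the outer membrane and is known for its part in mitochondrial shape. CPM of SLC25A46 were 46.1, 42.5 and 39.8 in siZNF514, against 82.1, 72.0 and 81.7 in nc. Its log2 fold change was -0.88 ± 0.08, and every siZNF514 value lay below every nc value. SLC25A35 stood at 10.1, 8.28 and 8.06 CPM in the siZNF514 libraries and at 18.7, 18.6 and 15.8 CPM in nc. SLC25A35, whose substrate is not established, fell by 1.00 on the log2 scale, and RANGRF, which overlaps it, was higher (0.24 ± 0.08). SLC25A45 had 12, 20 and 21 counts in siZNF514 and 18, 43 and 48 in nc. Its log2 fold change of -1.02 ± 0.40 did not pass, with a 95% interval of -1.96 to -0.08, though it passed without nc library 1 (-1.33). SLC25A43 had 270, 287 and 261 counts in siZNF514 and 241, 390 and 265 in nc, and SLC25A53 had 36, 37 and 48 counts in siZNF514 and 25, 35 and 30 in nc. Their log2 fold changes of -0.11 ± 0.15 for SLC25A43 and 0.44 ± 0.19 for SLC25A53 did not pass.

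SLC25A14, SLC25A27 and SLC25A30 resemble the uncoupling proteins. SLC25A14 fell, with 106, 112 and 99 counts in siZNF514 and 130, 153 and 124 in nc and a log2 fold change of -0.34 ± 0.12, a call lost when any 1 library was left out (-0.38 to -0.26). SLC25A27 had 37, 42 and 32 counts in siZNF514 and 29, 35 and 31 in nc, and SLC25A30 398, 363 and 369 counts in siZNF514 and 411, 442 and 420 in nc. They had log2 fold changes of 0.24 ± 0.19 and -0.16 ± 0.08 and did not pass. SLC25A34 had 2 counts in siZNF514 and 12 in nc, a ratio of 16.8% with an exact 95% interval of 1.83 to 75.6% that covers counting error only, and it was not tested. SLC25A47, a liver carrier, and SLC25A48 had no count.

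Family members under other names were looked at separately. UCP3, an uncoupling protein of muscle, had 6, 4 and 4 counts in siZNF514 and 27, 33 and 16 in nc, with a log2 fold change of -2.39 ± 0.37. UCP1, of brown fat, had no count, and UCP2 had 0, 0 and 5 counts in siZNF514 and 1, 1 and 2 in nc and was not tested. MTCH1 and MTCH2, which sit in the outer membrane and help insert proteins there, were higher, with log2 fold changes of 0.18 ± 0.04 and 0.40 ± 0.06, of which MTCH1 did not pass with total counts alone (0.0550). Of 4 antisense transcripts named for members, SLC25A30-AS1 had 1 count and SLC25A5-AS1, with 142 counts in all, had a log2 fold change of -0.22 ± 0.34 that did not pass. SLC25A25-AS1 had 26, 30 and 36 counts in siZNF514 and 86, 74 and 51 in nc, a log2 fold change of -1.18 ± 0.23. SLC25A21-AS1 had 72, 85 and 62 counts in siZNF514 and 39, 49 and 38 in nc, a log2 fold change of 0.82 ± 0.18.

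Lists of enzymes and proteins that work with these carriers were examined alongside them, each beside the background of 25.5% higher, 25.1% lower and a median log2 fold change of -0.01 over all tested genes. With total counts alone that background was 17.5% higher, 33.5% lower and a median of -0.14. Neither background was matched for level. In the highest band of level (9.08 FPKM and above), 46.8% of all genes rose, 19.5% fell and the median was 0.17. In the lowest band 12.9% rose, 28.1% fell and the median was -0.16. MDH1, MDH2, GLUD1, PPIF, TSPO, HK2, PRDX3, GPX4 and PRDX5, named below, lay in the highest band. Of 17 tested genes of malate, citrate and pyruvate metabolism, 10 rose and 2 fell (8 and 4 with total counts alone), and their median was 0.27. MDH1 and MDH2, the cytosolic and mitochondrial malate dehydrogenases of the malate-aspartate shuttle, rose by 0.51 and 0.60 on the log2 scale, and GLUD1, glutamate dehydrogenase, by 0.44. Of 12 tested genes of adenine nucleotide handling and outer membrane channels, 7 rose and 0 fell (6 and 0 with total counts alone), with a median of 0.52, and the 3 with the smallest p were PPIF (cyclophilin D, 1.02 ± 0.04), TSPO (0.69 ± 0.05) and HK2 (hexokinase 2, 0.63 ± 0.04). Of 10 mitochondrial glutathione and thioredoxin genes, 5 rose and 0 fell (2 and 2 with total counts alone), with a median of 0.18, among them PRDX3 (0.64 ± 0.03), GPX4 (0.44 ± 0.06) and PRDX5 (0.21 ± 0.04, not past with total counts alone).

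Of 18 tested genes of haem and iron-sulfur cluster synthesis, 6 rose and 6 fell (2 and 7 with total counts alone), with a median of 0.13. ALAD, which acts after the glycine-using step of haem synthesis, fell by 1.25 on the log2 scale, and ABCB10, an inner membrane transporter, fell by 0.74. Of 11 tested genes of serine, glycine and folate one-carbon metabolism, 4 rose and 0 fell (3 and 0 with total counts alone), with a median of 0.09 (-0.04 with total counts alone). The 3 with the smallest p were MTHFD1L (0.50 ± 0.05), DLD (0.39 ± 0.05) and MTHFD1 (0.21 ± 0.04, not past with total counts alone). Of 14 tested genes of cofactor and mitochondrial nucleotide supply, 2 rose and 5 fell (2 and 7 with total counts alone), with a median of -0.13. MAT2A, which makes S-adenosylmethionine in the cytosol, fell by 1.06 on the log2 scale, COASY, which makes coenzyme A, fell by 0.42, and the mitochondrial RNA polymerase POLRMT rose by 0.49. Of 14 tested genes of arginine, proline and branched-chain amino acid metabolism, 4 rose and 3 fell (2 and 5 with total counts alone), with a median of -0.07, and BCAT2 at 0.81 ± 0.05, OAT at 0.69 ± 0.07 and DBT at -1.22 ± 0.08 had the smallest p.

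The list for carnitine shuttling and fatty acid oxidation had 3 higher and 1 lower of 14 tested (2 and 4 with total counts alone) and a median of 0.05 (-0.07 with total counts alone), with ETFA (0.97 ± 0.08) and ETFB (0.45 ± 0.06) higher and CPT1A (-0.62 ± 0.09), which commits fatty acids to the shuttle, lower. Of 8 tested regulators of mitochondrial biogenesis, 2 rose and 3 fell, with a median of 0.05 (-0.08 with total counts alone), including TFB1M (1.05 ± 0.06), GABPA (0.50 ± 0.07) and PPRC1 (-0.33 ± 0.05). Of 10 tested components of carrier import by TOM70 and TIM22, 2 rose and 1 fell, with a median of 0.07 (-0.05 with total counts alone). TOMM70, the outer membrane receptor for carriers, was higher (0.38 ± 0.04), as was TIMM10 (0.42 ± 0.10), and TIMM22, the inner membrane insertase, was lower (-0.60 ± 0.06). The values in parentheses are log2 fold changes with their SE, and no list was tested as a set.

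**Figure D5:**
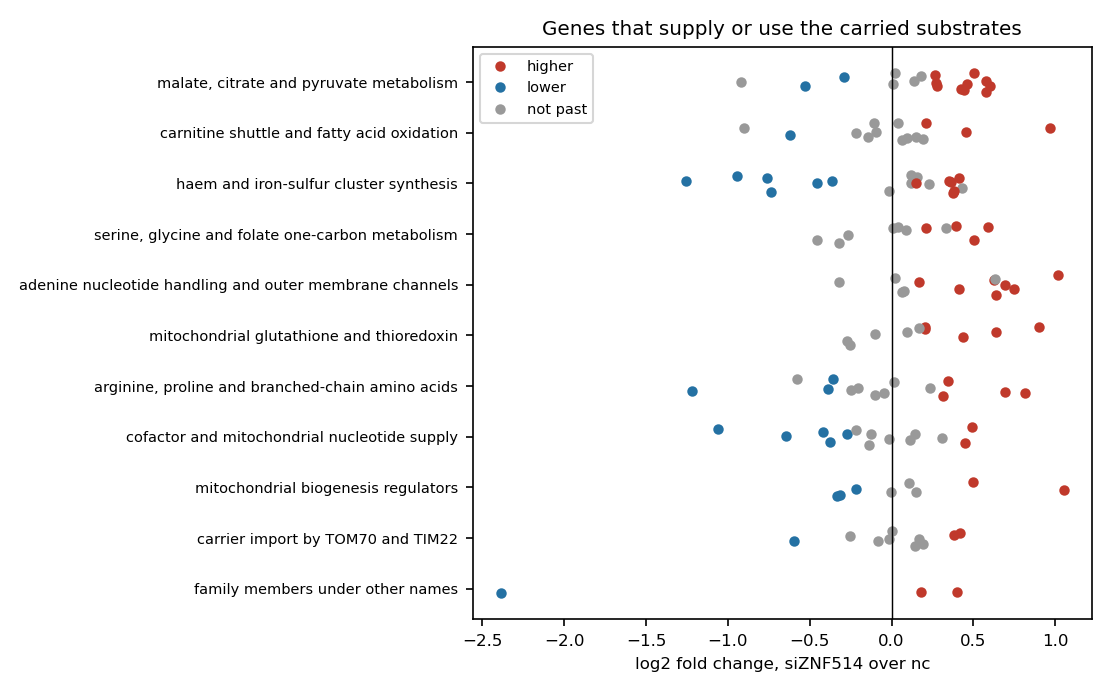
The log2 fold change of siZNF514 over nc (horizontal axis) is drawn for every tested gene of each partner list and for the family members under other names, with colours for higher, lower and not past. The adenine nucleotide, one-carbon and glutathione rows hold no gene that passed as lower, and the lowest point of the last row is UCP3 at -2.39.

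The carriers lie on 19 chromosomes, and a few sit near each other. SLC25A5 and SLC25A43 are 13.9 kb apart on chromosome X, with log2 fold changes of 0.17 and -0.11 that did not pass. SLC25A23 and SLC25A41 are 2.3 kb apart on chromosome 19, and neither passed. Of the 39 tested carriers, 18 overlap another gene with at least 10 counts. Where the other gene is on the opposite strand, the carrier's counts carry the limit on strand given for SLC25A11. SLC25A3, SLC25A10 and SLC25A33 overlap such genes only on the same strand, which counting by strand would not separate. Leaving out nc library 2 lowered the carriers called lower to 9, against 14 with all libraries. The share of all genes called lower was 21.7% without it, against 25.1% with all libraries.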

How the data were processed

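The deposited table held, for each of 50868 genes and 6 libraries, a count and an FPKM value, per the file headers. Per the submitters' processing notes, the tools were HISAT2 2.0.4 and StringTie 1.3.3b with edgeR, and the build hg38, with no role stated. The sources used here give no annotation release, filter or strand setting. The deposited counts were whole numbers, and the deposited FPKM of each tested member equalled its count over the library total and 1 length, within 0.00749% across libraries.

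Columns were matched to libraries by title. Libraries of a group differed by a chi-square per degree of freedom of 7.43 to 9.69, so none was a duplicate. Genes were filtered with filterByExpr (minimum count 10, minimum total 15) in edgeR 4.0.16 (R 4.3.3), scaled by TMM and compared with the quasi-likelihood F test over 14250 genes, adjusted by Benjamini-Hochberg at 0.05. CPM values are counts relative to a library's tested counts times its TMM factor, on the usual CPM scale. A value after ± is an SD for levels and shares and an SE for log2 fold changes. The fit was tested on simulated data. Alternatives (17) covered scaling, filters, DESeq2 1.42.0, limma 3.58.1 on log2 FPKM, a replicate block, leaving out each library and summing SLC25A10 with an overlapping gene, the last chosen after seeing the data.

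Substrate groups came from general knowledge. Members, lists and alternatives were chosen with earlier results of these data known. Values of each library were given for members changed by at least 1.5-fold, the 10 with the highest FPKM and their paralogs, and for a few others chosen after their values were seen. From each partner list up to 3 genes with the smallest p were named. Some genes are counted in totals and not reported here by name. Gene loci in the table matched GENCODE 29 in start and end for 44 of 48 members. Reads had no molecular identifiers, so counting intervals cover counting error only.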

Additional observations from a re-analysis of the deposited data

How the results depend on the processing

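Under 17 alternatives, 15 of the 24 carriers past the threshold stayed past it in the same direction in every alternative that tested them, and no carrier past it changed sign. SLC25A12, SLC25A36, SLC25A39 and SLC25A40 lost their calls with total counts alone and with FPKM, and SLC25A14, SLC25A16, SLC25A17 and SLC25A33 did under other settings. With DESeq2, SLC25A12, SLC25A14, SLC25A16, SLC25A17 and SLC25A33 did not pass. Of 15 carriers not past it, 8 passed in at least 1 alternative. Carriers called higher numbered 10, and 6 with total counts alone and in each of 4 limma fits on log2 FPKM, while the share of all genes called higher was 25.5%, and 17.5% with total counts alone and 17.6 to 18.6% in those fits. Leaving out 1 library gave 9 to 12 called higher and 9 to 12 called lower. The median log2 fold change of the carriers was -0.11, and -0.20 to -0.11 without 1 library. It was -0.23 with total counts alone, -0.19 with a mean count of at least 50, and -0.23, -0.17 and -0.28 with FPKM and pseudocounts of 0.1, 1 and 0.01, and -0.27 with a mean FPKM of at least 0.5. Total counts alone and FPKM leave out the library factors of 0.954 to 0.962 in siZNF514 and 1.043 to 1.049 in nc. Leaving them out lowers the log2 fold changes of all genes, not of the carriers alone. Other sources of these differences were not tested.

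Signs changed for carriers near 0 that were not past the threshold. SLC25A20 was 0.0126 with the replicate block, 0.0146 without the filter and 0.0077 with DESeq2, and -0.21 to 0.15 without 1 library. SLC25A23 was -0.12 with total counts alone, -0.0309 with a mean count of at least 50, and -0.12, -0.11, -0.12 and -0.12 in the limma fits, and -0.0151 to 0.0459 without 1 library. Without 1 library, SLC25A28 ranged over -0.19 to 0.0362, SLC25A41 over -0.40 to 0.24 and SLC25A43 over -0.22 to 0.0703.

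Same-numbered libraries did not deviate together (correlations of 0.00121, 0.037 and -0.0392). These correlations cannot show whether same-numbered libraries were prepared in pairs, which no label states. With the replicate block, 11 carriers were higher and 11 lower, and the genes called numbered 6640, against 7212 without it. SLC25A5 (0.16, adjusted p = 0.0481 by edgeR) and SLC25A45 (-0.99) passed with the block and not without it, and SLC25A14, SLC25A16 and SLC25A33 passed without it and not with it. Carriers with few counts, such as SLC25A45 and SLC25A41, had wide intervals at this depth.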
